A study of Mus musculus with 18 samples.

Results

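Bone marrow-derived macrophages (BMDMs) of wild type mice were compared after loading with acetylated LDL (Ac-LDL) and after vehicle, and the comparison rests on 6 of the 18 RNA-Seq libraries of the series. The cells came from 3 mice labelled Slc7a7+/+, the wild type of the Slc7a7-LysM line on a C57Bl/6J background. In that line LysM-Cre, driven from the Lyz2 locus, deletes the amino acid transporter gene Slc7a7 in myeloid cells; whether the wild type mice carry the Cre is not given in the sources used here. Bone marrow of 12-week-old mice was cultured for 7 days in macrophage colony-stimulating factor or L-cell conditioned medium, 100000 cells were seeded, and the cells received 50 μg/mL Ac-LDL or PBS for 24 h. The cells of each mouse received both treatments, so each of the 3 Ac-LDL libraries has a control library of the same animal. With the mouse as a block, p-values measure the spread of the responses between mice, not the spread of their levels. That spread was estimated over all 18 libraries. Slc7a7-/- cells of 3 further mice received the same treatments. Cells of every mouse of both genotypes also received oxidized LDL (Ox-LDL) at 100 μg/mL, and those libraries are among the 18.

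Ac-LDL is a modified lipoprotein taken up by scavenger receptors, which are not shut off as the cell fills with cholesterol, so macrophages load with cholesterol esters and become foam cells. Cholesterol in the endoplasmic reticulum is sensed by SCAP and the INSIG proteins, which hold back SREBP2, the transcription factor that drives the genes of cholesterol synthesis. Oxysterols and the sterol intermediate desmosterol activate the liver X receptors (LXR), which drive cholesterol export through ABCA1 and ABCG1.

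The proximal promoters of the sterol genes with the smallest p-values that could be printed are shown first, because SREBP2 acts there together with the factor NF-Y. Of the 27 genes of the sterol and LXR lists past the threshold, 19 were matched in the promoter table made from RefSeq (GRCm38.p6), and the 250 bases before each start site were searched. Only bases outside annotated exons are printed, each 5′ to 3′ on the strand of the gene. A stretch was printed only if it held a searched motif, so every printed sequence carries one by selection. Capitals mark the NF-Y box CCAAT on either strand and, in Hmgcs1, also the sterol regulatory element core TCACNCCAC.
Srebf2 (the SREBP2 gene, chr15:82147019-82147180, plus strand): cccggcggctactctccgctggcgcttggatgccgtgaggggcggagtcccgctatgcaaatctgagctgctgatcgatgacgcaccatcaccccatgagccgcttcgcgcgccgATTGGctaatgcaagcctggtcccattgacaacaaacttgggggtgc
Hmgcs1 (HMG-CoA synthase, chr13:119690101-119690350, plus strand): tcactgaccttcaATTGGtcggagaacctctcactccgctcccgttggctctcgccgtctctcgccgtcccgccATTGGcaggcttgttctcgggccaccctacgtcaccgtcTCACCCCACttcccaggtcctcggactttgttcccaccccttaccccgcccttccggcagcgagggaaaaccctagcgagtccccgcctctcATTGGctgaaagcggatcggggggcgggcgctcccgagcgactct
Insig1 (sterol sensor of the SREBP complex, chr5:28071162-28071362, plus strand): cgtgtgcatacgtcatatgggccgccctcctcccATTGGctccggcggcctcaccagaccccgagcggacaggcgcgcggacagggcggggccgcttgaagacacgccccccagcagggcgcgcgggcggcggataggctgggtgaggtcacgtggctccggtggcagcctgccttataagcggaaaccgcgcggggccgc
Hsd17b7 (sterol reductase, chr1:169969242-169969408, minus strand): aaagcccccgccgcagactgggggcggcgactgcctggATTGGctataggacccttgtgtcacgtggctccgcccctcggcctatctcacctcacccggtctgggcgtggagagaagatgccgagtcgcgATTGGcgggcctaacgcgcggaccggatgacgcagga
Mvd (mevalonate diphosphate decarboxylase, chr8:122443423-122443672, minus strand): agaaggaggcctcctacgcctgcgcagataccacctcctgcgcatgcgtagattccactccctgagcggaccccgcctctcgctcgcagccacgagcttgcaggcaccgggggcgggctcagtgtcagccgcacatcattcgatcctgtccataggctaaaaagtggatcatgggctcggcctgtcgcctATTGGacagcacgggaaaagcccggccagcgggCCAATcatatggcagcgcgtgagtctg
The NF-Y box stood in a window of 14 of the 14 matched genes that fell with Ac-LDL and of 2 of the 5 that rose, against 37.5% of the 27025 genes in the table. Dhcr7 had more than 1 start site, and only its window at chr7:143829964-143830263 held the box. In that window and in those of Idi1 and Tm7sf2, all 250 bases before the start site lay in annotated exons. The core element TCACNCCAC was found in Hmgcs1 alone of those 19, 137 bases before the start site, with NF-Y boxes 237, 176 and 45 bases before it, and stood in 1.22% of all genes' windows. The E-box TCACGTGA (0.907% of genes) and the LXR element of the DR4 type, AGGTCA or GGGTCA repeated in the same direction after 4 bases (0.037% of genes), were in none of the 19. All motifs were searched on both strands; no searched motif overlapped another in the sequences printed. A match is a match of letters, and the absence of one says nothing of binding elsewhere.

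Expression was measured by sequencing total RNA, and values are counts per 1000000 counts of a library (CPM), with library sizes scaled by TMM. The 6 libraries held 1043492 to 1473080 counts each, with a median of 1375090, so that 3 counts, the lowest level read as detected, corresponded to 2.04 to 2.85 CPM. A total of 12290 genes passed the filter on low counts. The median log2 fold change over all of them was -0.004.

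With Ac-LDL, 265 of the 12290 genes changed (2.16%; edgeR quasi-likelihood test with the mouse as a block, adjusted p under 0.05 over all genes). More genes fell than rose, with 176 lower (1.43%) and 89 higher (0.724%). The counts of changed genes in each list below are to be read against these shares of all genes. Of the 265, 54 fell and 21 rose by more than 2-fold, and 20 and 4 by more than 4-fold. Genes of cholesterol synthesis and of SREBP control, the inflammatory receptor Tlr2 and the cytokine Tnf fell, and the cholesterol exporters Abca1 and Abcg1 rose. In 261 of the 265 the difference had the same direction in all 3 mice, against 31.4% of all genes, and in 187 the 3 Ac-LDL libraries did not overlap the 3 controls, against 11% of all genes. Without the mouse block the test called 58 genes (0.472%; 8 higher and 50 lower), all of them among the 265. Leaving out single libraries moved the count the most for mouse 3, with 116 genes without its Ac-LDL library and 129 without its control, while 159 were called without the control of mouse 2. The RNA was taken from whole cultures, in which fewer cells of a type and less RNA per cell cannot be told apart.

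**Figure D1:**
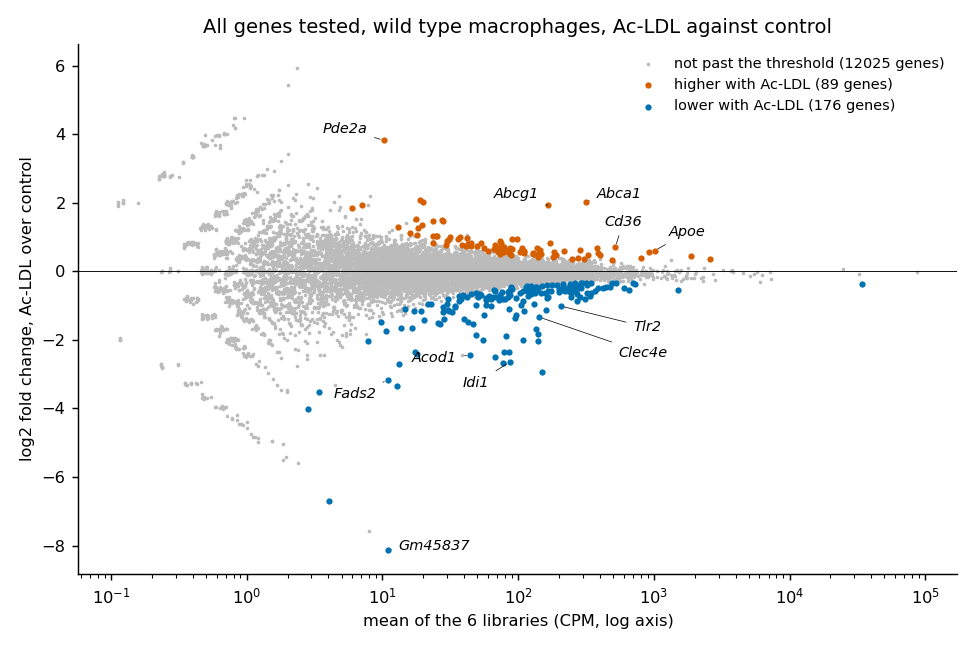
Each point is 1 of the 12290 genes, with its mean CPM over the 6 libraries on a log axis against its fitted log2 fold change with Ac-LDL, in orange where higher (89), in blue where lower (176) and in grey where not past the threshold. Sterol genes such as Idi1 sit low at moderate expression and Abca1 and Abcg1 sit high; the fitted values of genes at 0 counts in a group, such as Gm45837, depend on the prior count.

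In the mevalonate pathway, which builds the isoprenoid precursors of cholesterol from acetyl-CoA, 6 of the 9 genes tested fell and none rose, with a median log2 fold change of -1.76. The summed level of the 9 genes was 765, 759 and 781 CPM in the control libraries and 171, 199.5 and 220.3 CPM with Ac-LDL. Every Ac-LDL library was thus far below every control library. Hmgcs1, the synthase that forms HMG-CoA (its promoter is among those printed), had 169, 178 and 171 CPM in the controls and 34.2, 47.3 and 46.9 CPM with Ac-LDL, a log2 fold change of -2.004 (SE 0.154, adjusted p = 1.36e-11). It was at nearly the same level in all control mice, and the groups did not overlap.

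Of the later steps, Idi1, Fdps and Mvd fell further than Hmgcs1, while Mvk fell less. Idi1, the isomerase that yields dimethylallyl diphosphate, went from 161, 137 and 153 CPM to 17.1, 21.4 and 31.3 CPM (log2 fold change -2.65, SE 0.166, adjusted p = 1.21e-13). Fdps, which makes farnesyl diphosphate, had a log2 fold change of -2.68, Mvd of -2.69 and Mvk, mevalonate kinase, of -1.66. Acat2 and Pmvk had values of -1.76 and -1.30 but missed the threshold (adjusted p = 0.0741 and 0.0517), with 2.22 to 9.49 CPM in the Ac-LDL libraries. Ggps1, which turns farnesyl diphosphate to the non-sterol branch that supplies protein prenylation, had 25.1, 27.2 and 25.5 CPM in the controls and 23.7, 23.6 and 25.8 CPM with Ac-LDL. It was the member of the list whose values overlapped between the groups. Of 14 further genes that use isoprenoids (prenyltransferases, dolichol and coenzyme Q synthesis), 0 passed the threshold by edgeR and the median was 0.06. Parts of Idi1 and Fdps share sequence with other annotated genes, with 18.8% and 27.9% of their 31-base stretches found elsewhere in the transcriptome, so the assignment of some reads is uncertain.

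In the steps from squalene to cholesterol, 11 of 12 genes fell and none rose, with a median log2 fold change of -1.83. The summed level was 911, 904 and 971 CPM in the controls and 244, 207 and 273 CPM with Ac-LDL. Sqle, the squalene epoxidase that is a further control point of the pathway, had 104, 121 and 118 CPM in the controls and 15.2, 22.9 and 21.8 CPM with Ac-LDL (log2 fold change -2.50, SE 0.184, adjusted p = 4.84e-12). Cyp51, the lanosterol demethylase, had a log2 fold change of -2.36 and Msmo1, a methylsterol oxidase, of -2.04. Fdft1 (-2.01), Hsd17b7 (-2.35), Nsdhl (-1.64), Lss (-1.54), Tm7sf2 (-1.43), Sc5d (-1.19) and Dhcr7 (-1.17) also fell on the log2 scale. Ebp, a sterol isomerase, was the member that did not pass, with 23.2, 23.7 and 37.9 CPM in the controls and 26.6, 16.99 and 20.4 CPM with Ac-LDL (log2 fold change -0.44, adjusted p = 0.5). By DESeq2 7 of the 12 were called, but Hsd17b7, Nsdhl and Dhcr7 had no adjusted p there and so could not be called. Without the mouse block 8 were called, and Sc5d, Tm7sf2 and Dhcr7 were not. In both lists together 17 of 21 genes fell, a share to be read against the 1.43% of all genes that were lower.

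Of the 11 tested genes of sterol uptake, trafficking and SREBP control, 4 fell (36.4%, against 1.43% of all genes) and none rose. Srebf2, the gene of SREBP2 itself, had 202, 227 and 222 CPM in the controls and 54.1, 63.5 and 66.7 CPM with Ac-LDL (log2 fold change -1.82, SE 0.13, adjusted p = 3.02e-12). Insig1, itself a target of SREBP2, had 126, 126 and 133 CPM in the controls and 25.6, 34.0 and 42.8 CPM with Ac-LDL (log2 fold change -1.89, SE 0.155, adjusted p = 6.35e-11). Stard4, which carries cholesterol through the cytosol, had a log2 fold change of -1.48. None of these 3 genes overlapped between the groups, and the promoters of Srebf2 and Insig1 are among those printed.

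The other members of this list had no change past the threshold. Scap and Tmem97 had log2 fold changes of -0.44 and -0.67 (adjusted p = 0.324 and 0.444), and Insig2 and the site proteases Mbtps1 and Mbtps2, which cut SREBP, lay between -0.20 and -0.06. Npc1 and Npc2, which pass cholesterol out of the lysosome, differed by less than the spread between mice, with Npc1 at 280.4, 307 and 355 CPM in the controls and 279, 301 and 347 CPM with Ac-LDL.

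**Figure D2:**
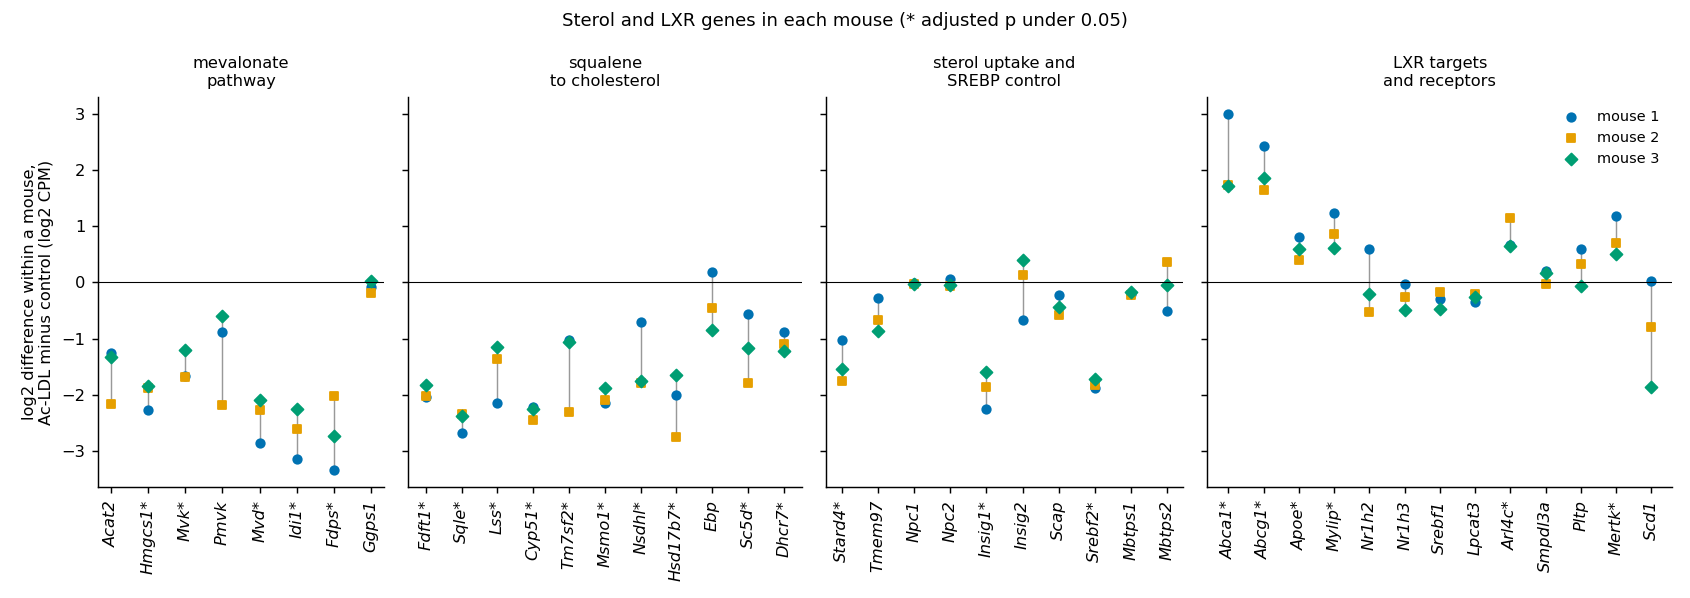
Each column is 1 gene and each symbol 1 mouse, at the difference in log2 CPM between its Ac-LDL and its control library; a star marks genes past the threshold, and 3 genes of the lists are not drawn. All 3 mice lie below -1 for most genes of both synthesis lists, near 0 for Ggps1, Npc1 and Npc2, and above 1.5 for Abca1 and Abcg1.

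Fatty acid synthesis, which SREBP proteins also drive, fell in part. Of 14 genes tested 4 fell (28.6%, against 1.43% of all genes) and none rose, with a median log2 fold change of -0.54. Fads2, a desaturase of polyunsaturated fatty acids, had 23.2, 21.6 and 14.6 CPM in the controls and 1.90, 1.48 and 2.72 CPM with Ac-LDL, the latter at or near the limit of 3 counts (log2 fold change -3.18, SE 0.501, adjusted p = 7.9e-05). Fasn, the fatty acid synthase, went from 109, 70.5 and 78.7 CPM to 38.9, 41.4 and 43.5 CPM (log2 fold change -1.02, adjusted p = 0.000106). Scd2, a stearoyl-CoA desaturase, had a value of -1.13, and Acly, which supplies cytosolic acetyl-CoA, of -0.59. Srebf1, the gene of the related factor SREBP1 and a target of LXR, did not pass (log2 fold change -0.32, adjusted p = 0.489). Without the Ac-LDL library of mouse 3, and also by DESeq2, 2 of the 14 were called. Fads2 had no adjusted p by DESeq2 and so could not be called there.

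Part of the LXR list moved the other way, while 5 of its 13 genes had a negative log2 fold change without passing the threshold. Of 13 LXR targets and receptors 6 rose (46.2%, against 0.724% of all genes) and none fell, with a median log2 fold change of 0.25. The summed level was 1730, 2175 and 2474 CPM in the controls and 3209, 3238 and 3608 CPM with Ac-LDL. Abca1, which loads cholesterol onto apolipoprotein A-I (chr4:53030787-53159895, GRCm38), had 60.4, 153.5 and 155 CPM in the controls and 488, 514 and 511 CPM with Ac-LDL (log2 fold change 2.04, SE 0.173, adjusted p = 1.51e-10). The Ac-LDL libraries sat close together at a mean of 504 ± 14.4 CPM (SD, n = 3), while the control of mouse 1 was below the other controls. Abcg1, which exports cholesterol to HDL, had 46.4, 97.0 and 61.2 CPM in the controls and 256, 306 and 226 CPM with Ac-LDL (log2 fold change 1.93, SE 0.148, adjusted p = 1.36e-11). Mylip, the ubiquitin ligase also called IDOL, went from 43.6, 47.5 and 61.2 CPM to 104, 87.2 and 93.9 CPM (log2 fold change 0.88, adjusted p = 0.000247).

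The other risen LXR targets changed by smaller factors. Apoe, the apolipoprotein that accepts exported cholesterol, had 677, 794 and 950.5 CPM in the controls and 1187, 1048 and 1432 CPM with Ac-LDL (log2 fold change 0.61, adjusted p = 0.00107). Arl4c, a small GTPase, had a log2 fold change of 0.81 and Mertk, a receptor for apoptotic cells, of 0.77. Their groups did not overlap, but Apoe and Mertk were not past the threshold without the mouse block (adjusted p = 0.555 and 0.214). The receptors themselves did not pass, with Nr1h3 (LXRα) at 40.9, 44.7 and 50.3 CPM in the controls and 39.9, 36.9 and 35.4 CPM with Ac-LDL and Nr1h2 (LXRβ) at a log2 fold change of -0.07. Pltp, Smpdl3a and Lpcat3, the phospholipid remodelling enzyme, also stayed within the spread, with log2 fold changes of 0.25, 0.12 and -0.28. None of the 7 tested genes of oxysterol synthesis and binding passed by edgeR, among them Cyp27a1 (log2 fold change -0.33), the sterol 27-hydroxylase, and Ch25h, cholesterol 25-hydroxylase, which was at 0 to 2.96 CPM.

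**Figure D3:**
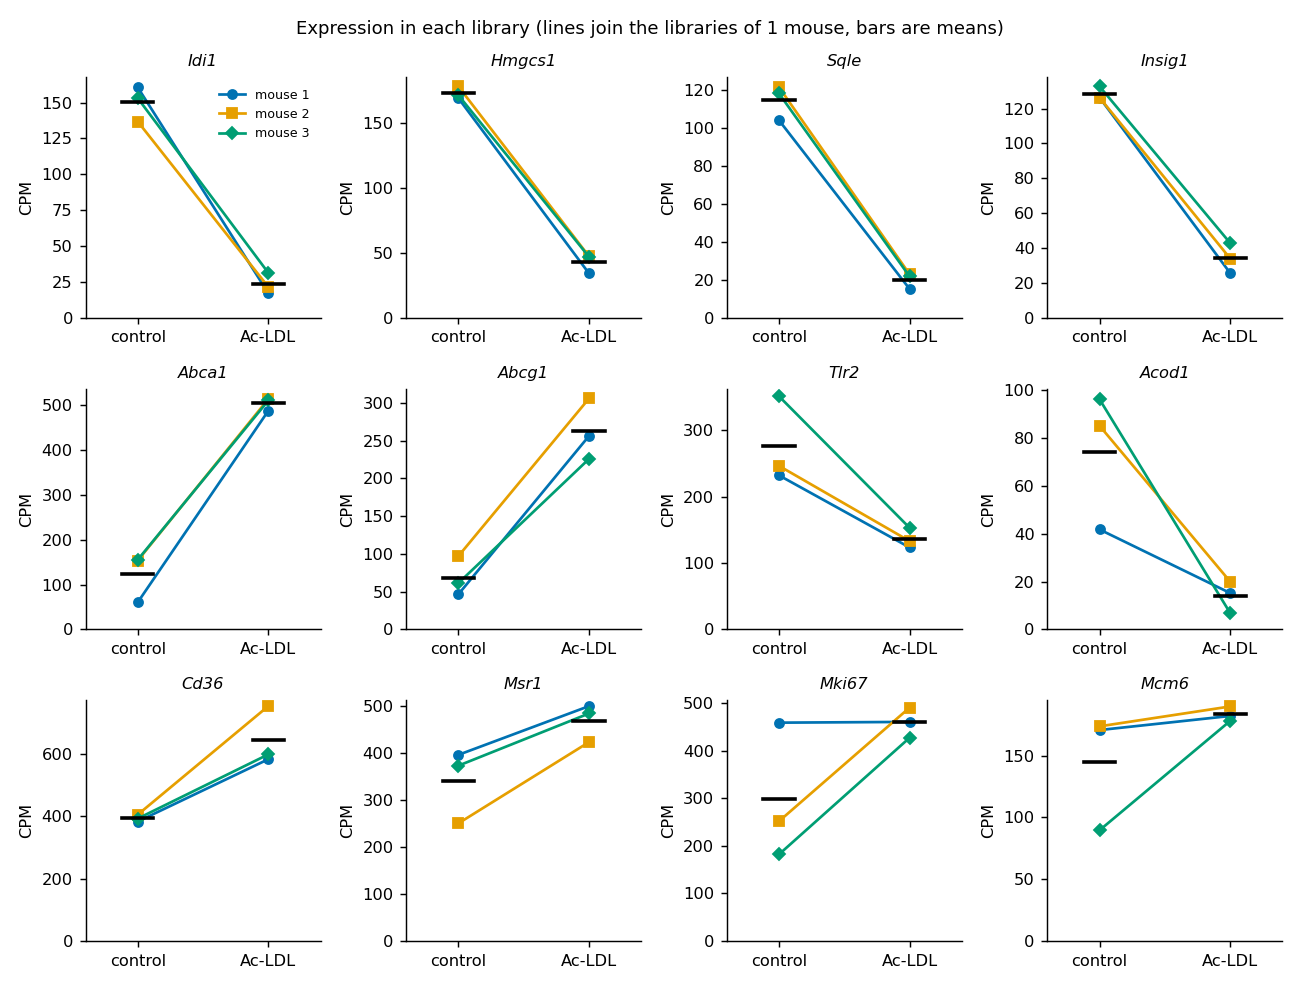
CPM of 12 genes in each of the 6 libraries, from an axis starting at 0, with a line for each mouse and a bar at each group mean. Idi1, Hmgcs1, Sqle, Insig1, Tlr2 and Acod1 are lower and Abca1, Abcg1, Cd36 and Msr1 higher with Ac-LDL in every mouse, whereas Mki67 is at 459.6 and 461 CPM in mouse 1 and higher with Ac-LDL in mice 2 and 3.

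Among the scavenger receptors, the route by which Ac-LDL enters, 3 of 12 genes rose and 2 fell (41.7% called, against 2.16% of all genes). Cd36, a receptor for modified lipoproteins and fatty acids, had 383, 405.5 and 393 CPM in the controls and 584, 754 and 599 CPM with Ac-LDL (log2 fold change 0.71, SE 0.103, adjusted p = 2.25e-05). Msr1, the class A receptor that binds Ac-LDL, had 395.5, 249.9 and 372.5 CPM in the controls and 499, 423 and 483.5 CPM with Ac-LDL (log2 fold change 0.48, adjusted p = 0.00369). Lrp1, a large endocytic receptor, rose slightly (log2 fold change 0.37, adjusted p = 0.0461). Scarb1, the HDL receptor SR-BI, fell from 109.6, 109.6 and 102 CPM to 54.1, 71.7 and 72.1 CPM (log2 fold change -0.68, adjusted p = 0.00219), and Cxcl16, a chemokine that also binds oxidized LDL, had a value of -0.49. The groups did not overlap for any of these but Cxcl16, where 1 Ac-LDL library at 231 CPM was level with the control at 230.2 CPM. Without the mouse block Scarb1 alone of the 5 was called (adjusted p = 0.0253; Cd36 0.147 and Msr1 0.372). The count of risen receptors was 1 without the control or the Ac-LDL library of mouse 2, and that of fallen receptors 1 without the control of mouse 3 or the Ac-LDL library of mouse 1 or 3.

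Most genes of ester storage and lipid droplets did not pass the threshold after 24 h. Of 18 genes, which include targets of PPAR, Cd36 and Lpl rose and Fabp5 fell (16.7% called, against 2.16% of all genes). Lpl, lipoprotein lipase, was 963, 2796 and 1092 CPM in the controls and 1366, 3440 and 1599 CPM with Ac-LDL, higher within each mouse although the groups overlapped (log2 fold change 0.45, adjusted p = 0.00131; 0.92 without the mouse block). Fabp5, a fatty acid binding protein, went from 352, 195 and 333 CPM to 283, 134.5 and 190.4 CPM, lower within each mouse and overlapping between groups (log2 fold change -0.56, adjusted p = 0.00365). Plin2, which coats lipid droplets, had 438, 477 and 464 CPM in the controls and 574, 451 and 467 CPM with Ac-LDL (log2 fold change 0.10, adjusted p = 0.77). Soat1, the enzyme that esterifies cholesterol, had a value of 0.03 and Lipa, the lysosomal acid lipase, of 0.02.

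The markers of lipid-associated macrophages did not move together. Of 12 markers, Lpl rose and Fabp5 fell, and the median was -0.01; without the control of mouse 3, 2 markers rose. Trem2, the lipid receptor that marks these cells in tissue, had 343, 366 and 425 CPM in the controls and 399, 442.5 and 473 CPM with Ac-LDL (log2 fold change 0.22, adjusted p = 0.325). Gpnmb (-0.13), Spp1 (-0.06), Lgals3 (0.05) and Cd63 (-0.12) differed by less than the spread on the log2 scale. Of 27 lysosomal genes only Ctsz, a cathepsin, passed the threshold (log2 fold change -0.45, adjusted p = 0.0142), which at 3.7% is near the background of 2.16%, and Lamp1, Lamp2, Ctsb and Ctsd lay between -0.05 and 0.10. Without the control of mouse 3, or the Ac-LDL library of mouse 3, Fabp5 and Ctsz were not called, and Ctsz was not called without either library of mouse 2.

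Of 15 inflammatory cytokine and effector genes tested, 7 fell (46.7%, against 1.43% of all genes), none rose and 8 did not pass. The median log2 fold change was -0.63. DESeq2 called 5 of the 15 as lower and gave no adjusted p for Gpr84, which edgeR called. Tlr2, a receptor for bacterial lipoproteins, had 232, 246 and 351 CPM in the controls and 123, 133 and 153 CPM with Ac-LDL (log2 fold change -1.01, SE 0.104, adjusted p = 1.5e-08). Acod1, which makes itaconate, had 41.8, 85.2 and 96.2 CPM in the controls and 15.2, 19.9 and 6.80 CPM with Ac-LDL (log2 fold change -2.45, SE 0.261, adjusted p = 3.25e-08). Neither overlapped between the groups, and both were also called without the mouse block (adjusted p = 0.00474 and 7.79e-05). Tnf, the cytokine, went from 52.9, 43.97 and 31.3 CPM to 19.9, 25.9 and 11.6 CPM (log2 fold change -1.15, adjusted p = 0.00316).

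Cd14, the co-receptor for lipopolysaccharide, was 214.5, 597 and 367 CPM in the controls and 118, 329 and 228 CPM with Ac-LDL, so that it was lower in each mouse by a similar factor although mice differed more than treatments (log2 fold change -0.80, adjusted p = 2.43e-07). The feedback inhibitors of NF-κB, Nfkbia and Tnfaip3 (A20), had log2 fold changes of -0.63 and -0.74, and Gpr84, a receptor for medium-chain fatty acids, of -1.75. Il1b and Il10 were at 0 to 2.22 CPM in all 6 libraries, near the limit of 3 counts, and Tlr4 (log2 fold change 0.17) and Nlrp3 (-0.22) did not pass. Without the mouse block, Tlr2 and Acod1 were the 2 genes called and Cd14 was not (adjusted p = 0.551). Without the Ac-LDL library of mouse 3, 4 of the 15 were called. Among 11 chemokines Cxcl16 alone fell, a call lost without either library of mouse 3, and Cxcl2, a neutrophil attractant, had 11.1, 30.0 and 18.9 CPM in the controls and 2.85, 14.04 and 8.16 CPM with Ac-LDL (log2 fold change -1.28, adjusted p = 0.0905).

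Of 23 interferon-stimulated genes, 22 had a negative log2 fold change, against 6198 of all 12290 genes, and the median was -0.38. Only Ddx58 (RIG-I, a sensor of viral RNA) passed the threshold (log2 fold change -0.68, edgeR adjusted p = 0.0203), a share of 4.35% near the background of 2.16%. It kept its call without the control of mouse 1 and missed the threshold when any other single library was left out. The summed level was 395.5, 1334 and 746 CPM in the controls and 341, 1038 and 553 CPM with Ac-LDL, lower within each mouse while the 3 mice differed by more. Ifit1 had 7.43, 44.7 and 18.2 CPM in the controls and 3.80, 20.7 and 8.84 CPM with Ac-LDL (log2 fold change -1.07, adjusted p = 0.0812).

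Few genes of the stress lists passed. Of 17 NRF2 targets, which answer to oxidative stress, only Sqstm1 fell (log2 fold change -0.49, adjusted p = 0.00137), while Hmox1 (0.14), Nqo1 (0.42) and Gclm (0.10) did not pass. None of the 19 targets of ATF4 and none of the 17 endoplasmic reticulum chaperones and unfolded protein response genes passed by edgeR, with medians of -0.24 and -0.07. Slc16a3, the lactate exporter, was the 1 of 16 glycolytic genes that fell (log2 fold change -0.70, adjusted p = 0.0482), and it missed the threshold in 9 of the alternatives tried. None of the 17 tested genes of amino acid transport and arginine use passed by edgeR. Without the Ac-LDL library of mouse 2, 2 NRF2 targets, 2 ATF4 targets and 1 amino acid transport gene were called as lower.

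**Figure D4:**
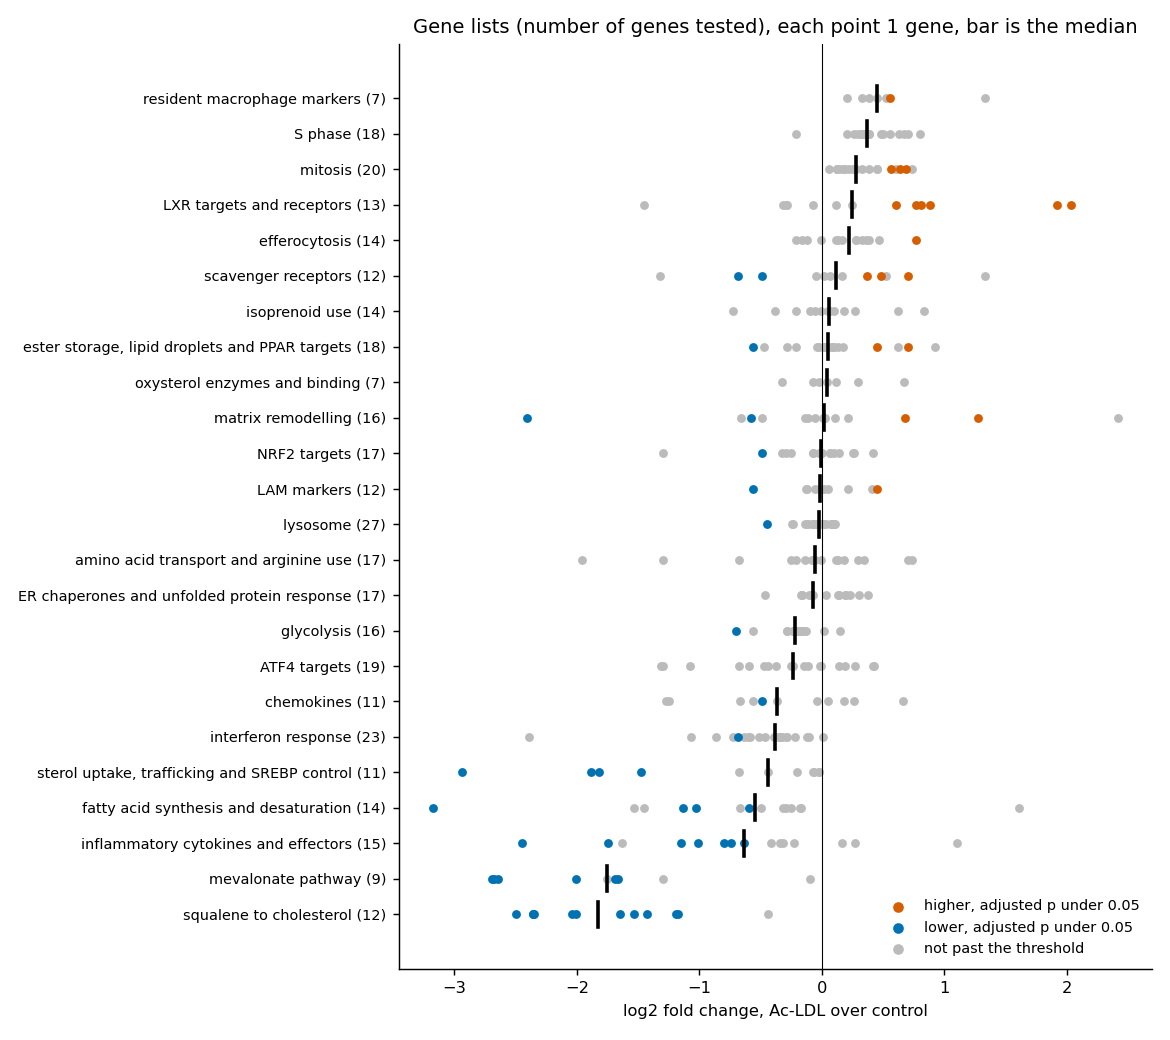
Log2 fold change with Ac-LDL of every tested gene of 24 lists, with the number of genes tested in parentheses, a bar at each list's median, orange for higher, blue for lower and grey for genes not past the threshold. Both cholesterol synthesis lists sit at medians of -1.76 and -1.83, the inflammatory list at -0.63 and the LXR list at 0.25 with 6 genes higher, while lists such as the lysosome (-0.02) centre on 0.

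Cell cycle genes were higher with Ac-LDL in 2 of the 3 mice. The summed level of 20 genes of mitosis was 1927, 1274 and 786.5 CPM in the controls of mice 1, 2 and 3 and 1794, 1784 and 1636 CPM with Ac-LDL. In mouse 1 the level was thus lower with Ac-LDL, and the controls spread more widely than the treated libraries. Mki67, Cenpe and Kif11, all expressed in dividing cells, rose (log2 fold changes 0.69, 0.56 and 0.64, edgeR adjusted p = 0.0039, 0.0293 and 0.0484). All 20 genes of the list had a positive log2 fold change, against 6077 of all 12290 genes. Mki67 had 459.6, 252 and 182 CPM in the controls and 461, 491 and 428 CPM with Ac-LDL. Of 18 S phase genes 17 were positive, with a median of 0.37 and 0 past the threshold by edgeR; Mcm7, part of the replicative helicase, came nearest (log2 fold change 0.63, adjusted p = 0.0515). The summed level of the S phase genes was 1337, 946 and 499 CPM in the controls and 1335, 1197 and 1017 CPM with Ac-LDL.

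These calls rested on single libraries. Without the control of mouse 1, 8 S phase genes and 7 genes of mitosis were called, while without the control of mouse 3 none of either list was called and the median of the mitosis list was 0.09. No gene of mitosis was called without the control of mouse 2, without the Ac-LDL library of mouse 3, without the mouse block or by DESeq2.

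Other lists held a few changed genes each. In matrix remodelling, Thbs1 (thrombospondin, log2 fold change 1.28) and Plau (urokinase, 0.68) rose and Mmp14 and Adam17 (-0.57) fell, of 16 genes. The share called was 25%, against 2.16% of all genes. Mmp14, the membrane-bound collagenase, went from 14.9, 43.3 and 32.1 CPM to 2.85, 10.3 and 4.08 CPM (log2 fold change -2.41, SE 0.333, adjusted p = 9.19e-06), with no overlap. Neither Thbs1 nor Plau was called without the mouse block, by DESeq2 or without the control of mouse 2, the control of mouse 3 or the Ac-LDL library of mouse 3, and Plau overlapped between groups, at 96.6, 49.6 and 32.1 CPM in the controls and 101.5, 98.3 and 71.4 CPM with Ac-LDL. Of 14 efferocytosis genes Mertk rose, and C1qb, C1qc and Itgav had log2 fold changes of 0.33, 0.28 and 0.36 without passing. Of 7 resident macrophage markers all were positive, against 6077 of all 12290 genes, with a median of 0.45. Selenop, a selenium carrier, alone was called, at 591, 745 and 911 CPM in the controls and 1015, 961 and 1322 CPM with Ac-LDL (log2 fold change 0.56, edgeR adjusted p = 0.000817, and 0.454 without the mouse block). Without the control of mouse 1, 3 genes each of the efferocytosis and resident lists were called.

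The cells carried the markers of macrophages. The 10 markers summed to 25210 to 35920 CPM in the controls and 26320 to 36340 CPM with Ac-LDL, and Lyz2, Cd68, Adgre1 (F4/80) and Csf1r did not pass the threshold. Among the 10, 2 rose, among them Mertk (log2 fold change 0.77), and Spi1 (PU.1) and Cd14 fell (-0.49 and -0.80). Of 11 neutrophil markers, with sums of 80.9 to 135 CPM in the controls and 86.4 to 220.2 CPM with Ac-LDL and with 2 at 0, S100a9 rose (52.0, 30.7 and 14.6 CPM against 88.2, 54.7 and 30.6 CPM, adjusted p = 0.0439). It was not past the threshold without the mouse block (adjusted p = 0.732). Dendritic cell markers summed to at most 2.85 CPM, lymphoid and erythroid markers to at most 2.19 CPM, basophil and mast cell markers to at most 0.729 CPM, osteoclast markers to 5.44 to 18.1 CPM and stromal markers to 0 to 15.6 CPM. The part of neutrophil RNA in the results was not tested.

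The largest changes by the naming rule included genes outside the lists. Zranb3, a helicase of stalled replication forks, had 18.6, 10.5 and 16.04 CPM in the controls and 44.6, 45.8 and 32.6 CPM with Ac-LDL (log2 fold change 1.46, adjusted p = 0.000353). Arap2, a regulator of small GTPases, had a log2 fold change of 1.501 and Enpp1, an ectonucleotidase, of 1.29. Both had groups that did not overlap, as the rule required. Pbk, a mitotic kinase (1.35), Snx24 (1.02), Rnf219 (1.06), Dmwd (1.93) and Sncaip (1.85) also rose on the log2 scale. Enpp1 missed the threshold in 7 of the 12 alternatives, and Rnf219, Dmwd and Sncaip missed it in 8 of 12 each. Pbk missed it in 4 of 12 and Snx24 in 4 of 13. Without the control of mouse 2, Dmwd had a log2 fold change of 1.30 (adjusted p = 0.451).

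Several of the largest changes were in genes that share 57.3% to 98.5% of their 31-base stretches with other genes. Pde2a, a phosphodiesterase, had 0, 0 and 3.65 CPM in the controls and 26.6, 16.99 and 14.3 CPM with Ac-LDL (log2 fold change 3.83, adjusted p = 0.00422), while Gm45837 had 22.3, 19.5 and 24.1 CPM in the controls and 0 in all Ac-LDL libraries, at least 9.27-fold lower. The 31-base stretches of Gm45837 are found to 95.6% in Pde2a, with which it overlaps on the same strand (Pde2a at chr7:101421691-101512827, GRCm38). The sum of both was 22.3, 19.5 and 27.7 CPM in the controls and 26.6, 16.99 and 14.3 CPM with Ac-LDL, and the groups overlapped. The sums also overlapped between groups for Gm49369 with Ctsd, Gm45234 with Atn1, Gm38431 with Raver1 and Ak6 with Taf9, so the changes of these 6 are uncertain. Hspa1a, a heat shock protein, had a log2 fold change of -2.03 (edgeR adjusted p = 0.0352) and missed the threshold in 5 of 12 alternatives. It shares 65.4% of its stretches with other genes, above all its near-identical copy Hspa1b. The sum of the pair was 25.1, 57.2 and 27.0 CPM in the controls and 16.1, 22.2 and 17 CPM with Ac-LDL, without overlap.

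Cells of 3 Slc7a7-/- mice, with other animals and other controls, gave the same direction for 260 of the 265 genes (98.1%, against 60.8% of all 12290 genes). Slc7a7 itself had 11.1, 12.6 and 21.1 CPM in the wild type controls and 28.5, 23.6 and 23.8 CPM with Ac-LDL. These groups did not overlap, but the difference was not past the threshold (edgeR adjusted p = 0.25). In the knockout it had 10.3, 4.33 and 5.16 CPM in the controls and 2.36, 2.22 and 5.22 CPM with Ac-LDL, all below the wild type library with the lowest level; where in the gene the deletion lies is not given in the sources used here. The knockout test called 307 genes (2.5%), of which 153 were among the 265 with the same direction (38 higher and 115 lower) and 0 with the opposite one. These 153 were 57.7% of the wild type calls and 49.8% of the knockout calls. The median log2 fold change of the 89 risen genes was 0.69 in the wild type, which chose them, and 0.47 in the knockout, and that of the 176 fallen genes -0.72 and -0.56.

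The difference between the genotypes was tested by itself, and 5 genes passed (0.0407%), with 474 at an unadjusted p under 0.05. Hist1h2ah, Gm32687, Gstp1 and Ngp were among the 5, all at low counts. In the synthesis genes the knockout minus wild type difference was positive, a smaller fall in the knockout, in 9 of 9 mevalonate genes and 11 of 12 genes from squalene to cholesterol, against 6043 of all 12290 genes. The medians of the difference were 0.43 and 0.58, and 3 and 5 genes had an unadjusted p under 0.05, but none of these passed the adjusted test.

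Hmgcs1 had 189, 140.5 and 171.5 CPM in the knockout controls and 41.8, 49.98 and 41.2 CPM with Ac-LDL, which overlapped the wild type Ac-LDL libraries. Its log2 fold changes were -1.90 in the knockout and -2.004 in the wild type (difference 0.11, SE 0.22, adjusted p = 1 by edgeR's quasi-likelihood test). Idi1 had log2 fold changes of -1.83 and -2.65 in the knockout and the wild type, and the difference of 0.82 did not pass (adjusted p = 0.767). Abca1 rose by 1.44 on the log2 scale in the knockout and by 2.04 in the wild type, and this difference was not past the threshold either.

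**Figure D5:**
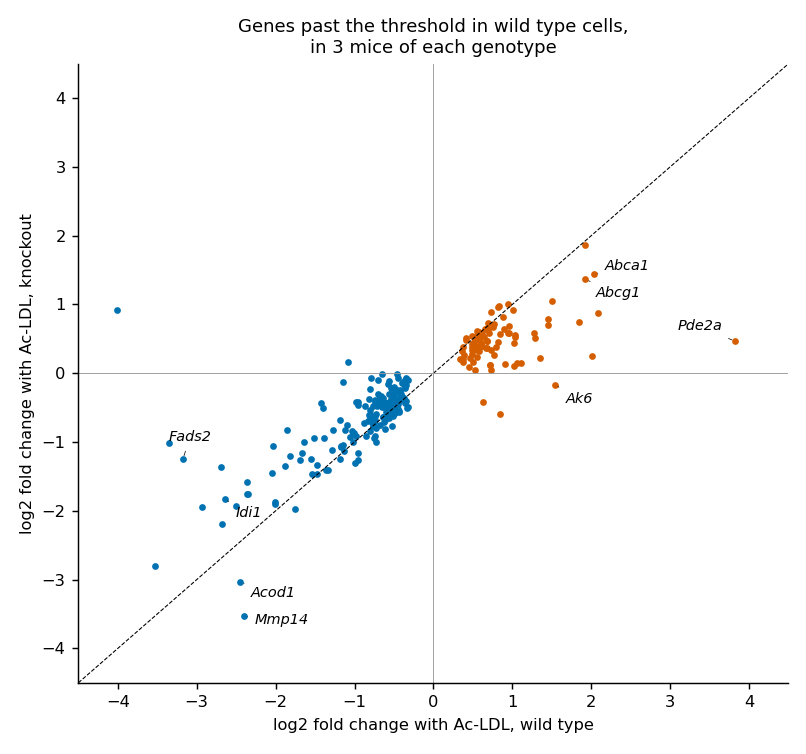
Each point is 1 of the 265 genes past the threshold in the wild type, at its log2 fold change with Ac-LDL in the wild type and in the knockout, orange for higher and blue for lower in the wild type; the dashed line marks equal values, and 2 of the 265 genes lie outside the axes. Most points have the same sign in both genotypes, and Idi1 lies above the line at -2.65 and -1.83.

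Oxidized LDL (Ox-LDL) was given to cells of the same 3 mice at 100 μg/mL, a different dose, and shares the control libraries, so its values are set beside those of Ac-LDL without a comparison. With Ox-LDL 539 genes were called (4.39%; 188 higher and 351 lower). The mevalonate list had a median of -2.53 with 7 genes lower, the list from squalene to cholesterol -1.87 with 10 lower, and the LXR list 0.24 with 5 higher and 1 lower. For Ac-LDL these were -1.76 with 6, -1.83 with 11 and 0.25 with 6 higher. The interferon list had a median of -1.33 with 14 lower under Ox-LDL and of -0.38 with 1 lower under Ac-LDL. The NRF2 list had 9 higher under Ox-LDL with a median of 0.52, and 0 higher by edgeR with a median of -0.01 under Ac-LDL.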

How the data were processed

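Total RNA of BMDMs was sequenced single-end on a NextSeq 500 from SMARTer Stranded Total RNA-Seq v2 libraries. The deposited values were expected counts per gene from Salmon, which the authors made after trimming with Trim Galore and alignment with STAR to mm10 with the Ensembl 93 transcriptome (nf-core pipeline; versions and strand setting are not given in the sources used here). The counts of 18 libraries (31053 genes) were rounded to whole numbers. The filterByExpr function (minimum count 2, minimum total 10) left 12290 genes. Fold changes were tested with the edgeR (4.0.16) quasi-likelihood test in R 4.3.3, with TMM scaling, all 18 libraries sharing the spread estimate, the mouse (6 levels) as a block, treatment within genotype, Benjamini-Hochberg adjustment and a threshold of 0.05. Standard errors are the log2 fold change divided by the square root of F. The labels give both libraries of an animal the same animal number, and deviations from the group means correlated within mice at 0.5, 0.533 and 0.4 over 6758 genes of at least 20 CPM. The test was checked on simulated counts.

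The comparison, its 24 gene lists and 8 marker lists were chosen with earlier results of these data known. Named genes were list members, the 15 largest rises and the 15 largest falls among called genes of at least 5 CPM without overlap and with 1 direction in 3 mice, and genes with a called genotype difference; any other is said to be chosen after its values were seen. Alternatives were no block, DESeq2 (1.42.0), library size scaling, the default filter, no filter, fewer libraries in the fit and each library left out. Promoters came from RefSeq (GRCm38.p6), and shared 31-base stretches from the transcripts of GENCODE M21 (GRCm38). The control and Ac-LDL libraries of the same group differed from each other beyond sampling noise (chi-square per degree of freedom 3.83 to 7.31), so none was a duplicate. Long RNA Gm26917 took 6.86 to 11% of the counts of the 6 libraries. Totals of 1043492 to 1473080 counts per library limit genes of few counts; the floor of 3 counts covers counting error only. The values of some list genes are not reported here; list counts, medians and sums include them.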

Additional observations from a re-analysis of the deposited data

Results flagged for a closer look

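The response to Ac-LDL differed between wild type and Slc7a7-/- cells in 5 genes, by the edgeR quasi-likelihood test of the difference itself with the mouse as a block. The 4 described here rest on few counts. Ngp, a neutrophil granule protein, differed by -2.23 on the log2 scale (adjusted p = 0.0436). It had 29.7, 23.0 and 22.6 CPM in the wild type controls and 61.7, 53.2 and 17 CPM with Ac-LDL, so the wild type groups overlapped, and 24.1, 11.8 and 48.4 CPM in the knockout controls and 11.8, 7.78 and 9.86 CPM with Ac-LDL. Hist1h2ah, a replication-dependent histone gene, differed by -8.26 (adjusted p = 0.0291). It had 0, 18.8 and 7.29 CPM in the wild type controls and 7.59, 34.0 and 34.0 CPM with Ac-LDL, against 2.41, 23.5 and 0 CPM in the knockout controls (4, 38 and 0 counts) and 0 in all 3 knockout Ac-LDL libraries. Nearly all of the knockout control counts came from mouse 2, and no fold is given. Of its 31-base stretches 91.2% are shared with other genes.

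Gm32687 differed by 8.04 (adjusted p = 0.0291) and Gstp1, a glutathione transferase, by 6.09 (adjusted p = 0.0436). Both were at 0 in the 3 knockout controls and present in the knockout Ac-LDL libraries, at least 5.8-fold and 4.17-fold higher against the floor of 3 counts in each library, while in the wild type Gm32687 had 6.50, 10.5 and 9.48 CPM in the controls and 2.85, 5.91 and 4.08 CPM with Ac-LDL. Gstp1 had 6.50, 11.2 and 8.02 CPM in the wild type controls and 13.3, 8.87 and 12.9 CPM with Ac-LDL. Shared stretches made up 96% of Gm32687 and 38.5% of Gstp1. Each of the differences 8.04, 6.09 and, for Hist1h2ah, -8.26 involves a group at 0 counts. Their sizes therefore depend on the prior count and are not measured folds. Over 18 alternatives Gm32687 was past the threshold in 14, Hist1h2ah in 12, Ngp in 7 and Gstp1 in 6.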

How the results depend on the processing

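The wild type comparison gave 265 genes with the mouse as a block, 58 without the replicate block and 132 by DESeq2. Library size scaling in place of TMM gave 241 genes and a higher share of rises, 45.6% against 33.6%, with a shift of the median of all genes to 0.044. The default filter gave 258, no filter 348, only the libraries compared 256 and only the wild type libraries 197. Leaving out single libraries gave 116 to 341 genes, with 116 without the Ac-LDL library of mouse 3, 129 without its control and 159 without the control of mouse 2. The genotype difference gave 5 genes, but 0 without the replicate block (327 at an unadjusted p under 0.05). DESeq2, which kept the block, gave 1 (107 at an unadjusted p under 0.05). The default filter gave 0 (397 at an unadjusted p under 0.05), no filter 24 and only the libraries compared 10. Leaving out single libraries gave 2 to 5 genes, with 2 without the wild type Ac-LDL library of mouse 3 or the knockout control of mouse 2, and 3 without the wild type Ac-LDL library of mouse 2 or the knockout control of mouse 3. The cause was not tested. The settings were run for 80 of the named genes, and none of these changed direction. Of the 80, 43 lost the threshold without the block and 14 by DESeq2, where 22 had no adjusted p; single libraries left out cost between 6 and 25. Dhcr7, Kif11, Lrp1 and Slc16a3 lost it most often, in 9 settings each.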

Other observations

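The genes in this section were in no list and were chosen after their values were seen. Of the 265 genes, 208 stood in no pathway list, of which 73 were higher and 135 lower.

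Icam1, the adhesion molecule, had 107, 184 and 167 CPM in the controls and 51.2, 81.3 and 71.4 CPM with Ac-LDL (edgeR log2 fold change -1.17, adjusted p = 1.5e-08). Clec4e (Mincle), a receptor for mycobacterial glycolipid, had 163, 208 and 243 CPM in the controls and 64.5, 103 and 76.2 CPM with Ac-LDL (log2 fold change -1.34, adjusted p = 1.92e-09). Neither overlapped between the groups. The NF-κB subunits Relb (-1.19) and Nfkb2 (-0.99), the inhibitor Nfkbie (-0.73), the signalling proteins Birc3 (-0.74), Traf1 (-1.40) and Tnip1 (-0.88) and the mitochondrial superoxide dismutase Sod2 (-0.99) also fell on the log2 scale, while Nfkb1 did not pass (-0.22, adjusted p = 0.44). The complement gene C3 had 66.9, 265 and 189.5 CPM in the controls and 66.4, 131 and 70.0 CPM with Ac-LDL, with nearly equal values in mouse 1 (log2 fold change -0.95, adjusted p = 4.46e-05).

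Aacs, which activates acetoacetate for sterol synthesis, had 56.6, 64.2 and 86.0 CPM in the controls and 23.7, 23.6 and 23.8 CPM with Ac-LDL (log2 fold change -1.55, adjusted p = 1.34e-06). Slc25a1, the mitochondrial citrate carrier, had a log2 fold change of -1.03, Erg28 of -0.96, Cav1 (caveolin) of -1.28 and the aldolase Aldoc of -1.86.

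Among the risen genes, Slc40a1, the iron exporter ferroportin, had 53.9, 49.6 and 59.0 CPM in the controls and 94.9, 100.5 and 94.5 CPM with Ac-LDL (log2 fold change 0.84, adjusted p = 0.00157). Hpgd, which degrades prostaglandins, had a log2 fold change of 0.94, Rgs1 of 0.94, Nrp1 of 0.53, Dusp6, a phosphatase of ERK, of 1.02 and Etv5 of 1.04. The DNA polymerase genes Pola1 (0.73) and Pole (0.90), Wdhd1 (1.02), the kinetochore gene Ndc80 (0.95), the condensin gene Smc2 (0.68) and Aspm (0.57) rose on the log2 scale. For each of these cell cycle genes the control of mouse 3 was the lowest library. Pola1, Pole and Wdhd1 overlapped between the groups, and Pole differed by only 0.066 on the log2 scale in mouse 1. Leaving out single libraries was not tried for them.

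Without the mouse block, Icam1, Clec4e, Relb, Tnip1, Sod2, Aacs, Cav1 and Aldoc were past the threshold, and none of the other genes named in this section was (C3 at an adjusted p of 0.356 and Slc40a1 at 0.0576).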
